A study of Mus musculus with 16 samples.

Results

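Adhesion to matrix and to neighbouring cells was examined in mouse resident peritoneal macrophages through 31 genes that encode integrins, cadherins and other cell adhesion molecules. The members are a list of gene names and not a selection by measured value, although earlier results of these data were known when it was drawn up: 12 integrin α subunits, 6 integrin β subunits, 6 adhesion molecules of the immunoglobulin family, 3 cadherins, the tetraspanins Cd9 and Cd81, the hyaluronan receptor Cd44 and the selectin ligand Selplg. All 31 were among the 20848 genes of the array, measured by 627 probe sets that carry the symbol of a single gene. The groups were Ogr1 KO (-/-) cells at pH 6.7, Ogr1 KO (-/-) cells at pH 7.7, wild type (+/+) cells at pH 6.7 and wild type (+/+) cells at pH 7.7, each with 4 arrays. All groups were primary cells of C57BL/6 background, kept for 24 h in RPMI medium with 10% FCS. The pH values are those of the sample names, and the treatment text gives 6.8 and 7.6 for the same groups. OGR1 is a G-protein-coupled receptor activated by extracellular protons, and the design asks how macrophages respond to an acidic shift with and without it.

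Integrins are paired α and β subunits that span the membrane, bind matrix proteins or counter-receptors on other cells outside, and link to actin inside through talin, kindlin and vinculin. Subunits of the β2 family (Itgal, Itgam or Itgax with Itgb2) are those of leukocytes and serve adhesion to ICAM ligands and the uptake of complement-coated particles. Subunits paired with Itgb1 bind fibronectin, laminin and collagen. Cadherins join like cells to each other, and tetraspanins organise integrins in membrane microdomains.

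Whether replicates are separate mice is not given in the sample labels. The p-values therefore measure only the spread between these arrays, which may be technical, and their number sets the precision. The KO labels were not checked against the transcript of Ogr1, which is not analysed here. The array medians lay between 8.14 and 8.61 in linear intensity. WT pH 7.7 replicate 2 stood apart, with a median correlation of 0.883 with the other arrays over all probe sets, against 0.907 to 0.923 for the other arrays. All 7 macrophage markers (Adgre1, Csf1r, Cd68, Lyz2, Mertk, Fcgr1 and Cd14) averaged above the array median, and so did 6 of 7 markers of large peritoneal macrophages. Of the markers of other cells, 0 of 7 endothelial, 0 of 6 fibroblast, 0 of 7 T and NK cell, 1 of 7 mesothelial, 1 of 5 platelet, 0 of 3 measured eosinophil, 2 of 7 mast cell, 2 of 5 measured B cell, 2 of 5 neutrophil and 3 of 6 dendritic cell genes averaged above it. In bulk RNA, fewer cells of a type and less RNA per cell cannot be told apart.

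A level here is the log2 intensity averaged over a gene's probe sets, and each level is compared with nothing but its own array's median, since probe sets of different genes differ in brightness. This median is over all probe sets of the array and is not a rank among genes. By mean level Itgb3, below that median on all 16 arrays, was at percentile 54.0 of all genes. Of the α subunits, 7 of 12 lay above the array median on all 16 arrays: the β2 partners Itgal, Itgam and Itgax, the fibronectin and VCAM-1 receptor subunit Itga4, the fibronectin receptor subunit Itga5, the laminin receptor subunit Itga6, and Itgav, which binds vitronectin and latent TGF-β. Of the β subunits, 3 of 6 did so: Itgb1, Itgb2 and the αV partner Itgb5. The same held for Icam1, the ligand of the β2 integrins, for Alcam, a homophilic adhesion molecule that also binds CD6 of T cells, and for Cd44, Selplg, Cd9 and Cd81, which brings the number to 16 of 31.

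A further 5 members crossed the median from array to array: Itga9, a tenascin receptor subunit, on 14 arrays, Itgb7, a partner of Itga4, on 12, and the junctional genes Jam2 on 15, F11r on 5 and Cdh2 on 4. The remaining 10 stayed below it on all 16 arrays. They were the collagen receptor subunits Itga1 and Itga2, the laminin receptor subunit Itga3, Itga8, the αV partners Itgb3 and Itgb8, Vcam1, E-cadherin (Cdh1), VE-cadherin (Cdh5) and Pecam1. Cdh5 and Pecam1, which mark endothelium, ranged from 1.69 to 2.43 and from 1.80 to 2.56.

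At pH 6.7 relative to pH 7.7, Alcam and Itgal were lower and Itgb1 was higher when the responses of both genotypes were averaged. The call was an adjusted p under 0.05 in limma's moderated test, with Benjamini-Hochberg adjustment over all 20848 genes within a comparison. In the averaged comparison 3 of 31 members passed (9.68%), 1 higher and 2 lower, against 8.11% of all genes (5.48% higher and 2.63% lower), so the share of members called was near that of the array. In KO cells 1 member passed, Alcam (3.23%), against 4.98% of all genes (3.21% higher and 1.77% lower). In WT cells the same 3 genes as in the averaged comparison passed (9.68%), against 3.21% of all genes (2.18% higher and 1.03% lower). The median difference of the 31 members was -0.10 in KO cells, -0.01 in WT cells and -0.03 averaged, against -0.02, 0.00 and -0.01 for all genes (log2).

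Alcam was the only member that passed in both genotypes. Its level was 6.71, 6.71, 6.88 and 6.92 in KO pH 6.7, against 7.18, 7.20, 7.42 and 7.25 in KO pH 7.7. It was 6.21, 6.79, 6.73 and 6.69 in WT pH 6.7, against 7.25, 7.13, 7.55 and 7.25 in WT pH 7.7. All 8 arrays at pH 6.7 lay below all 8 at pH 7.7, and WT pH 6.7 replicate 1 was the lowest. The difference was -0.46 ± 0.13 (log2 ± SE) in KO cells, with an adjusted p of 0.0448 by limma, and -0.69 ± 0.13 in WT cells, with an adjusted p of 0.00505. These are 1.37-fold and 1.61-fold lower levels. The averaged difference was -0.57 ± 0.09 with an adjusted p of 0.000535. The KO call is close to the threshold: it held in 4 of the 16 refits with 1 array removed, where its adjusted p ran from 0.0176 to 0.115. It was lost with the median over probe sets and with only probe sets above the array median (adjusted p = 0.143 and 0.0739 by limma). The WT call was lost when the brightest probe set stood for the gene (adjusted p = 0.241). The averaged call held in each of these settings.

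The sequence from 250 bases before to 50 after the start of Alcam is shown because this gene passed in each genotype. It lies on chromosome 16 at chr16:52453032-52453331 of GRCm38.p6, on the minus strand, as RefSeq gives it. Capitals mark matches, on either strand, to the GC box GGGCGG and the CCAAT box CCAAT.
Alcam: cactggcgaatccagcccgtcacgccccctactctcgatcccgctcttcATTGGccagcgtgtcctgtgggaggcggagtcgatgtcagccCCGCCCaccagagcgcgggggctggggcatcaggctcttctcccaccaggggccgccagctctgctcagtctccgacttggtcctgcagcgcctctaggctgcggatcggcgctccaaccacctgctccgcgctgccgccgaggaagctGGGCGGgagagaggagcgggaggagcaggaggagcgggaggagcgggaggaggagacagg
This window is 69.7% G and C and holds 2 GC boxes and 1 CCAAT box. Of the 32851 promoter windows of the same length, 35.7% hold a GC box and 37.4% a CCAAT box, The motifs TATAAA and TGANTCA, the AP-1 site, were searched as well and are not in these letters; 13.6% and 7.81% of the windows hold them.

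Itgal encodes the αL subunit that pairs with Itgb2 to form LFA-1, the leukocyte receptor of ICAM-1. Its level was 3.37, 3.36, 3.62 and 3.53 in KO pH 6.7, against 3.90, 3.75, 3.71 and 3.81 in KO pH 7.7. It was 3.48, 3.53, 3.28 and 3.18 in WT pH 6.7, against 4.29, 3.99, 4.16 and 4.10 in WT pH 7.7. The pH groups did not overlap in either genotype, and the 4 WT pH 7.7 arrays were the highest of all 16. In WT cells the difference was -0.77 ± 0.10, a 1.70-fold lower level, with an adjusted p of 0.000444 by limma. In KO cells it was -0.32 ± 0.10 and did not pass, with an adjusted p of 0.0791. The KO difference passed with the median over probe sets (-0.75, adjusted p = 0.0458 by limma). It also passed with only probe sets above the array median (-0.43, adjusted p = 0.0315). It did not pass with centring of each array, repeated quantile normalization or array weights. The averaged difference was -0.54 ± 0.07 (adjusted p = 0.000117). In WT cells the call held in all 16 refits with 1 array removed. It did not hold when the brightest probe set stood for the gene, where the difference was 0.16 in KO cells and -0.12 in WT cells (adjusted p = 0.753 and 0.915).

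Itgb1 encodes the β1 subunit shared by the receptors for fibronectin, laminin and collagen. Its level was 8.02, 8.15, 7.94 and 7.88 in KO pH 6.7, against 7.68, 7.69, 7.78 and 7.73 in KO pH 7.7. It was 7.93, 7.94, 8.05 and 7.91 in WT pH 6.7, against 7.71, 7.49, 7.70 and 7.59 in WT pH 7.7. All 8 arrays at pH 6.7 lay above all 8 at pH 7.7. The difference was 0.28 ± 0.09 in KO cells, which did not pass (adjusted p = 0.0753 by limma), and 0.33 ± 0.09 in WT cells, which passed narrowly (adjusted p = 0.0464). The averaged difference of 0.31 ± 0.06, or 1.24-fold, had an adjusted p of 0.00465. The WT call held in 1 of the 16 refits with 1 array removed, the one without KO pH 6.7 replicate 2, with adjusted p from 0.0458 to 0.133. The averaged call held in all 16. It did not hold when the brightest probe set or the median over probe sets stood for the gene (adjusted p = 0.161 and 0.314 by limma). The WT call was lost in both of these as well. It was also lost with each array centred on its median and with repeated quantile normalization (adjusted p = 0.0607 and 0.0731). With only probe sets above the array median and with array weights it was lost as well (adjusted p = 0.0579 in each by limma). The same was so with only the groups compared (adjusted p = 0.17). The WT call held with filters on dim genes and with an intensity trend. In those settings the KO difference passed too (adjusted p = 0.0384, 0.0189 and 0.0355).

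The start of Itgb1 lies on chromosome 8 at chr8:128685404-128685703 of GRCm38.p6, on the plus strand, in the RefSeq table. It is shown for the opposite direction of its change to that of Alcam, with GC box and CCAAT box matches in capitals.
Itgb1: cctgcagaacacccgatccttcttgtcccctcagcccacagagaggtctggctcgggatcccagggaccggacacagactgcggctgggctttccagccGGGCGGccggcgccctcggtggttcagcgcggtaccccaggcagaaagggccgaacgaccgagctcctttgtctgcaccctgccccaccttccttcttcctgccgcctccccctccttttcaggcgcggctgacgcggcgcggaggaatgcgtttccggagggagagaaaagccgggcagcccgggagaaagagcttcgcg
The window is 67.3% G and C and holds 1 GC box and 0 CCAAT boxes. Both windows hold the GC box, and neither holds TATAAA or TGANTCA. Of the 31 members, 20 had an entry in the promoter table.

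**Figure D1:**
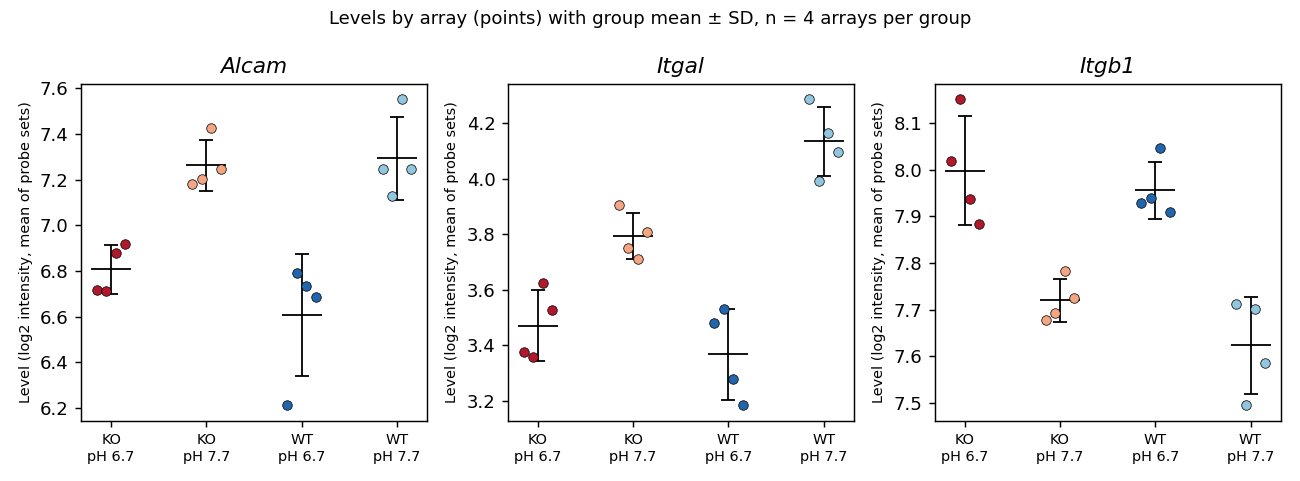
Level of Alcam, Itgal and Itgb1 (log2 intensity, mean of the gene's probe sets) in each of the 16 arrays, as points, with the mean and SD of each group of 4 as bars; the vertical axes do not start at 0. For Alcam and Itgb1 all 8 arrays at pH 6.7 lie on one side of all 8 at pH 7.7, and for Itgal the pH groups are apart within each genotype.

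The array measures these genes in pieces, since its probe sets cover single exons. For Alcam all 19 probe sets were lower at pH 6.7 in the averaged comparison, and for Itgb1 all 19 were higher. Among the 8419 genes with at least 10 probe sets, 3.79% had all of them on one side of 0, 2.73% higher and 1.06% lower. Itgal was less even: 25 of its 32 probe sets were lower and 7 were higher, from -1.82 to 0.48, and its brightest probe set differed by 0.02. In KO cells 17 of the 32 were lower and 15 higher, and in WT cells 28 were lower and 4 higher. All 25 probe sets of Itga6 were higher in the averaged comparison. In KO cells 13 of them were higher and 12 lower, and in WT cells 24 were higher and 1 lower.

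When each probe set was tested on its own over all 213361 of them, 7 of the members' 627 passed in the averaged comparison (1.12%), against 0.547% of all. They were 3 of Alcam, 2 of Itgal and 1 of Itga5, all lower, and 1 of Itgb1, which was higher. Among those that passed, the largest of each gene were an Itgal probe set at -1.82 ± 0.36 (adjusted p = 0.0387 by limma), an Alcam one at -0.89 ± 0.17 (adjusted p = 0.0275), an Itga5 one at -0.83 ± 0.17 (adjusted p = 0.0443) and the Itgb1 one at 0.78 ± 0.14 (adjusted p = 0.0208). Probe sets that did not pass reached -1.03 for Alcam, -1.49 for Itga5 and 0.83 for Itgb1. In the other 6 comparisons 0 of the 627 passed by limma, against 0.138% of all probe sets for the acid response in KO cells, 0.0722% in WT cells, 0.00797% for the interaction, 0.00234% for KO minus WT at pH 6.7 and 0% for KO minus WT at pH 7.7 and averaged over pH. Between 31 and 97 of the 627 had an unadjusted p under 0.05 in these 6.

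**Figure D2:**
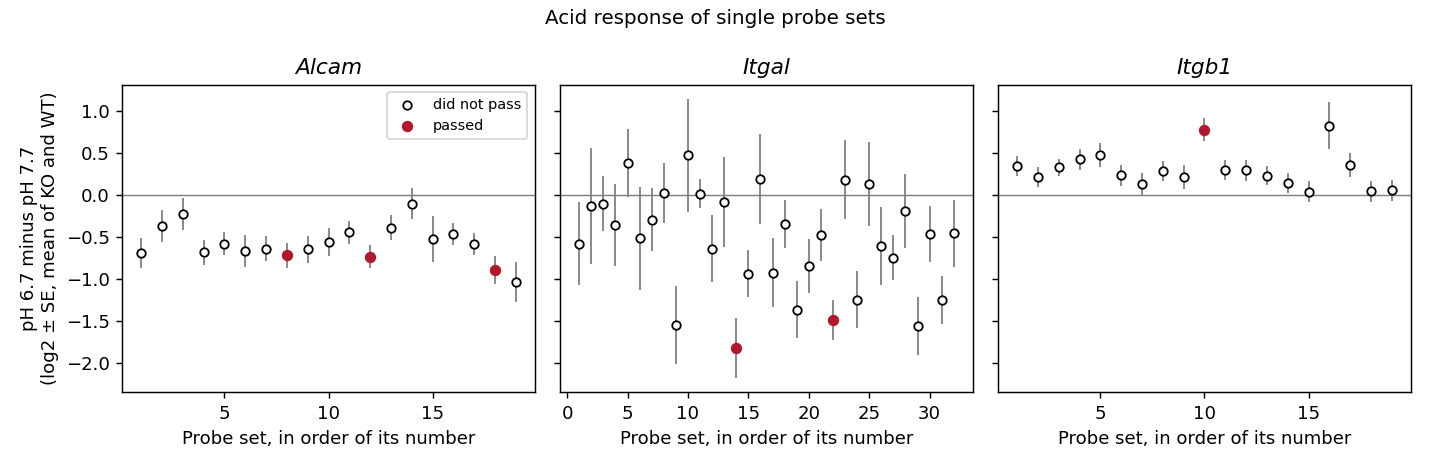
Difference of each probe set between pH 6.7 and pH 7.7, averaged over KO and WT (log2, with SE bars), in order of probe set number for Alcam, Itgal and Itgb1; filled points passed at an adjusted p under 0.05. The 19 Alcam points lie below 0, the 19 Itgb1 points above it, and 25 of the 32 Itgal points below it.

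Among the other β2 partners, Itgam, the αM subunit of complement receptor 3, was at 8.67, 8.54, 8.61 and 8.45 in KO pH 6.7, against 8.74, 8.96, 8.90 and 9.0 in KO pH 7.7. Itgax, the αX subunit, was at 6.83, 6.93, 7.01 and 6.82 in KO pH 6.7, against 7.30, 7.32, 7.30 and 7.46 in KO pH 7.7. Neither pair of groups overlapped, yet neither gene passed: the differences were -0.33 ± 0.10 for Itgam and -0.45 ± 0.13 for Itgax, with adjusted p of 0.062 and 0.056 by limma. In WT cells the groups overlapped, and the differences were -0.07 ± 0.10 and -0.14 ± 0.13. Their shared partner Itgb2 differed by -0.09 ± 0.09 in KO cells and 0.02 ± 0.09 in WT cells, and its 16 levels lay between 8.99 and 9.41.

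Of the partners of Itgb1, Itga5 differed by -0.27 ± 0.13 in KO cells and -0.32 ± 0.13 in WT cells, and the averaged difference of -0.29 ± 0.09 fell short of the threshold (adjusted p = 0.0602 by limma). Itga6 differed by 0.09 ± 0.14 in KO cells and 0.45 ± 0.14 in WT cells (adjusted p = 0.0941 in WT). Itga4 differed by -0.10 ± 0.12 and 0.26 ± 0.12, Itga9 by 0.00 ± 0.20 and 0.52 ± 0.20, and Itgav by -0.05 ± 0.18 and 0.19 ± 0.18, in KO and in WT cells. None of these 5 α subunits passed in KO, in WT or in the averaged comparison.

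Of the remaining β subunits, Itgb5 differed by -0.25 ± 0.19 in KO cells and 0.26 ± 0.19 in WT cells, and Itgb7 by 0.16 ± 0.18 and -0.47 ± 0.18. Icam1 was at 3.69, 3.67, 3.37 and 3.51 in KO pH 6.7, against 3.74, 4.11, 4.52 and 4.20 in KO pH 7.7, and at 4.64, 3.58, 3.75 and 4.14 in WT pH 6.7, against 3.84, 4.78, 4.42 and 4.36 in WT pH 7.7. The KO groups did not overlap and the WT groups did, and the averaged difference of -0.45 ± 0.15 did not pass (adjusted p = 0.0808 by limma).

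The tetraspanin Cd81 was at 9.24, 9.33, 9.33 and 9.25 in WT pH 6.7, against 9.15, 8.81, 9.03 and 9.03 in WT pH 7.7, groups that did not overlap. Its difference was -0.03 ± 0.09 in KO cells and 0.28 ± 0.09 in WT cells (adjusted p = 0.096 in WT by limma). Selplg, the ligand through which leukocytes bind P-selectin, was likewise apart in WT cells, by 0.21 ± 0.08 (adjusted p = 0.219). Cd9 differed by -0.12 ± 0.10 in KO cells and -0.05 ± 0.10 in WT cells, with 95% intervals of -0.32 to 0.08 and -0.25 to 0.16.

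The 10 members below the array median differed by -0.41 (Itgb8) to 0.08 (Itgb3) in KO cells and by -0.28 (Itga8) to 0.13 (Itga2) in WT cells. Of these, 0 passed by limma in either genotype, and 1, Itgb8 in KO cells, had an unadjusted p under 0.05.

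Counting members whose pH groups did not overlap gave 7 of 31 in KO cells (22.6%), against 14.8% of all genes, and 5 of 31 in WT cells (16.1%), against 7.77%. In KO cells they were Itgal, Itgam, Itgax, Itgb8, Icam1 and Alcam, lower, and Itgb1, higher. In WT cells they were Itgal and Alcam, lower, and Itgb1, Selplg and Cd81, higher. Alcam, Itgal and Itgb1 were in both.

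Some macrophage markers and some markers of other cells differed between the pH groups. In the averaged comparison Mertk rose by 0.34 ± 0.09, Adgre1 by 0.36 ± 0.10 and Fcgr1 by 0.92 ± 0.25 (adjusted p = 0.0176, 0.0401 and 0.0313 by limma). The other 4 macrophage markers were lower and did not pass. The median difference of the 7 was -0.01, against -0.01 for all genes (log2). The mean of the 7 was 7.99 to 8.19 in KO pH 6.7, against 7.85 to 8.15 in KO pH 7.7, and 8.04 to 8.47 in WT pH 6.7, against 7.60 to 8.16 in WT pH 7.7. In KO cells the mean level of the 6 fibroblast genes was 2.12 to 2.28 at pH 6.7, against 2.32 to 2.47 at pH 7.7, and that of the 7 mesothelial genes 1.96 to 2.18, against 2.26 to 2.38. Of these lists, Col1a1 fell by 0.38 ± 0.10 and the keratin Krt8 by 0.91 ± 0.24 (adjusted p = 0.0319 and 0.0376 by limma). In KO cells 5 of 6 fibroblast and 5 of 7 mesothelial genes were lower. So were 7 of 7 endothelial, 6 of 7 T and NK cell, 3 of 3 eosinophil and 5 of 5 measured B cell genes. Of the 5 platelet genes, 2 were lower and 3 higher. Whether these falls share a source was not tested. The mean of the 7 mast cell genes was lower without overlap in KO cells, 2.20 to 2.68 at pH 6.7, against 2.77 to 3.25 at pH 7.7. In WT cells it overlapped, at 2.21 to 4.31 at pH 6.7, highest in replicate 1, against 1.99 to 2.79 at pH 7.7. The median difference of these genes was -0.44 in KO cells, where 6 of 7 were lower, and 0.69 in WT cells, where all 7 were higher, and 0 passed in either. That of the 5 measured B cell genes was -0.23 in KO cells, where 0 passed. In WT cells it was 0.45, with 3 higher, 2 lower and 1 passing by limma. Among these, Cd79b averaged 4.65 in WT pH 6.7, against 3.39 in WT pH 7.7. The interaction passed for 0 of the 5.

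The mean of the 6 dendritic cell genes was 3.24 to 3.51 in KO pH 6.7, against 3.01 to 3.27 in KO pH 7.7, and 3.39 to 3.61 in WT pH 6.7, against 3.05 to 3.27 in WT pH 7.7. The WT groups did not overlap and the KO groups overlapped slightly. Of these genes Clec9a rose by 0.98 ± 0.23 in KO cells (adjusted p = 0.0207 by limma) and Cd209a by 1.11 ± 0.28 in WT cells (adjusted p = 0.0406), and both passed in the averaged comparison. They were the only 2 of the 6 that passed there. In KO cells 4 of the 6 were higher and 2 lower, and in WT cells 5 and 1. The median difference of the 6 was 0.18 in KO cells and 0.14 in WT cells. Flt3, Zbtb46 and Xcr1 lay above the array median on 0 arrays. For all these lists, their part in the results was not tested.

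The interaction, the KO acid response minus the WT acid response, passed for 0 of 31 members by limma, against 0.0432% of all genes, with 5 members at an unadjusted p under 0.05. For Itgal it was 0.44 ± 0.15, with an adjusted p of 0.27, the smallest among the members. The others were Itgb7 at 0.63 ± 0.25, Cd81 at -0.31 ± 0.12, Itga4 at -0.36 ± 0.16 and Jam2 at -1.04 ± 0.49. So Itgal, which passed in WT and not in KO cells, was not shown to respond differently in the 2 genotypes. For Alcam the interaction was 0.23 ± 0.18, with a 95% interval of -0.14 to 0.61, and for Itgb1 -0.05 ± 0.12, with an interval of -0.32 to 0.21.

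KO and WT cells were then compared at the same pH, and 0 of 31 members passed at either. At pH 6.7 this was 0 against 0.024% of all genes by limma, with 2 members, Itgb8 at -0.32 ± 0.14 and Icam1 at -0.46 ± 0.22, at an unadjusted p under 0.05. At pH 7.7 it was 0 against 0% of all genes, with 6 members at an unadjusted p under 0.05. Averaged over pH it was again 0 against 0%, with 4 at an unadjusted p under 0.05.

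At pH 7.7 the KO and WT arrays of 5 members did not overlap (16.1%), against 3.37% of all genes, and at pH 6.7 those of 0 members, against 6.99%. Cd81 was at 9.40, 9.36, 9.22 and 9.28 in KO pH 7.7, against 9.15, 8.81, 9.03 and 9.03 in WT pH 7.7, a difference of 0.31 ± 0.09 (adjusted p = 0.465 by limma). Itgax differed by 0.38 ± 0.13 (adjusted p = 0.563), Itga4 by 0.29 ± 0.12 (adjusted p = 0.603) and Cd9 by 0.19 ± 0.10 (adjusted p = 0.697). Itgal was lower by -0.34 ± 0.10 (adjusted p = 0.498): its KO pH 7.7 arrays, 3.71 to 3.90, lay below its WT pH 7.7 arrays, 3.99 to 4.29. In Cd81 and Itga4, WT pH 7.7 replicate 2, the array that stood apart, was the lowest of the 16.

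**Figure D3:**
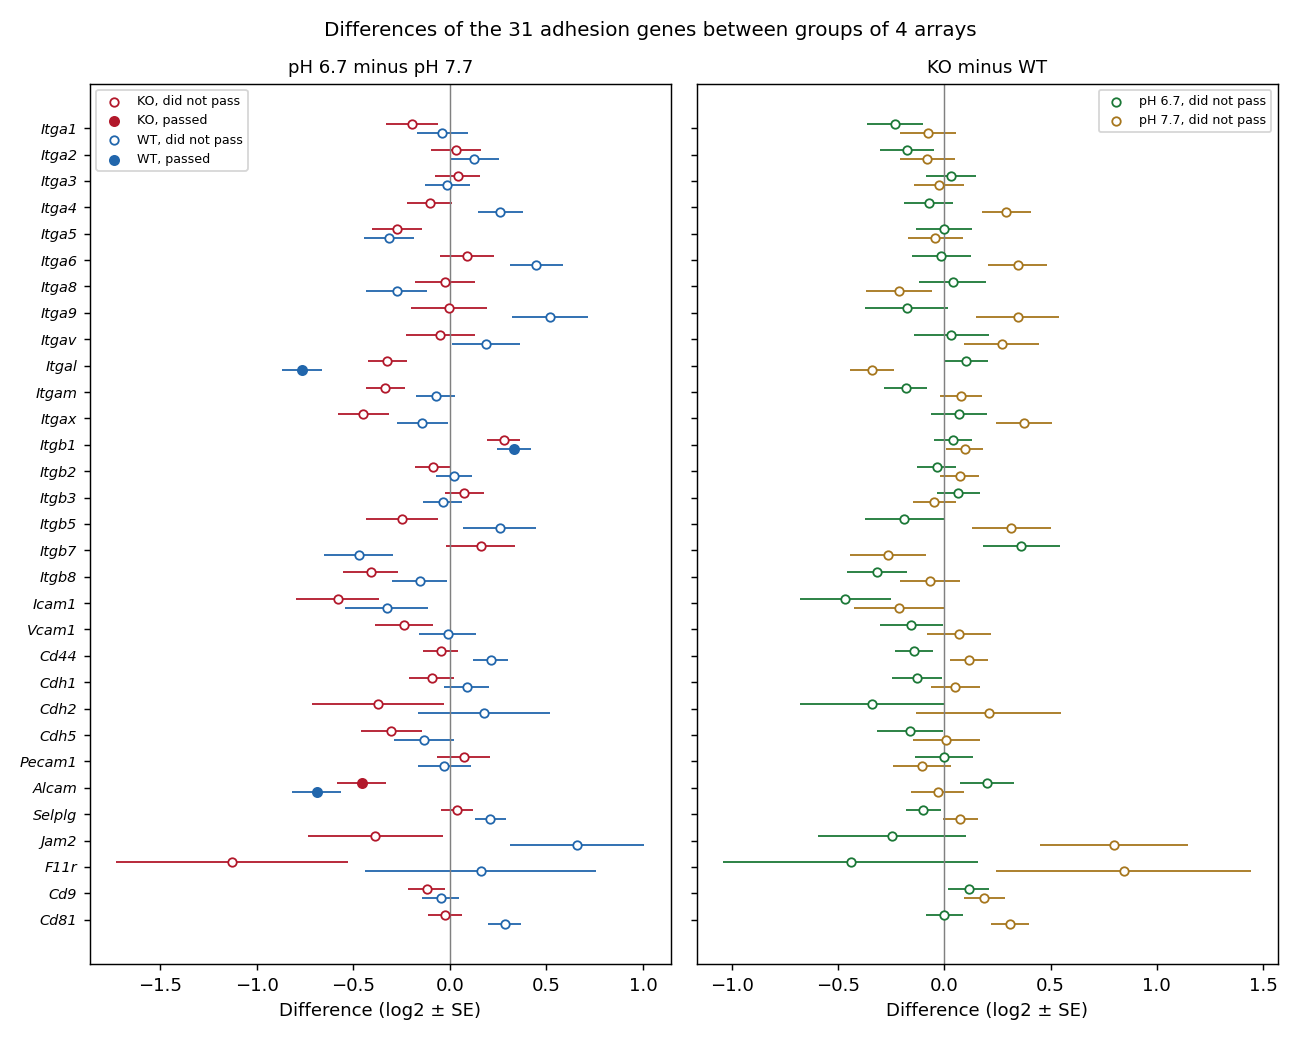
Difference of each of the 31 members (log2, with SE bars) between pH 6.7 and pH 7.7 in KO and in WT cells (left) and between KO and WT cells at pH 6.7 and at pH 7.7 (right), from 4 arrays a group; filled points passed at an adjusted p under 0.05. On the left Alcam passed in both genotypes and Itgal and Itgb1 in WT cells, and on the right no point passed; Jam2, F11r and Cdh2 have the widest errors.

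The junctional genes F11r (JAM-A), Jam2 (JAM-B) and Cdh2 (N-cadherin) varied more within groups than between them. F11r was at 3.49, 1.99, 1.90 and 1.91 in KO pH 6.7, against 4.82, 2.23, 2.18 and 4.55 in KO pH 7.7. It was at 2.19, 4.16, 1.82 and 2.88 in WT pH 6.7, against 2.30, 2.27, 3.67 and 2.17 in WT pH 7.7. Its acid response was accordingly wide, -1.13 ± 0.60 in KO cells and 0.16 ± 0.60 in WT cells, and did not pass.

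All 3 genes were high on the same 6 arrays: KO pH 6.7 replicate 1, KO pH 7.7 replicates 1 and 4, WT pH 6.7 replicates 2 and 4, and WT pH 7.7 replicate 3. On these 6 arrays F11r lay between 2.88 and 4.82, against 1.82 to 2.30 on the other 10. Jam2 lay between 3.80 and 4.78, against 3.0 to 3.74, and Cdh2 between 2.77 and 3.79, against 2.01 to 2.51. The replicate numbers of these arrays differ between groups, and each group holds 1 or 2 of them. More of them are in KO pH 7.7 and WT pH 6.7 than in the other groups. That unevenness lies along the interaction, in which Jam2 had an unadjusted p under 0.05 by limma. The part of these arrays in it was not tested.

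Genes of ovarian granulosa cells were listed after this pattern had been seen, so their values are a description. Of 11 measured, Cyp11a1, the first enzyme of steroid synthesis, was at 5.18 to 6.58 on the 6 arrays, against 1.47 to 3.15 on the other 10. Inhba, the activin A subunit, was at 4.56 to 6.68, against 1.61 to 3.20, and Hsd3b1 and Nr5a2 did not overlap either. The defining genes Fshr, Amh and Foxl2 stayed between 1.46 and 2.92 on all 16 arrays and overlapped, as did Inha, Inhbb, Star and Fst. The 6 arrays were set as those above the widest gap in the mean of this list, so the separation of that mean was fixed by the choice. It was 2.78 to 3.26 on the 6 arrays, against 1.81 to 2.20 on the others. The listed genes enter that mean, so their own gaps are not independent of the choice either. The source of this signal and its part in the results were not tested. Without the 6 arrays, an alternative chosen after seeing the data, Alcam and Itgal passed in the averaged comparison, Itgal in WT cells and 0 members in KO cells by limma, where 5 had an unadjusted p under 0.05. For Itgb1, which passed in none of the 3 comparisons, the differences were then 0.25 in KO cells, 0.39 in WT cells and 0.32 averaged (adjusted p = 0.419, 0.251 and 0.1), against 0.28, 0.33 and 0.31 with all arrays. Those of Alcam were -0.48 in KO cells and -0.73 in WT cells.

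**Figure D4:**
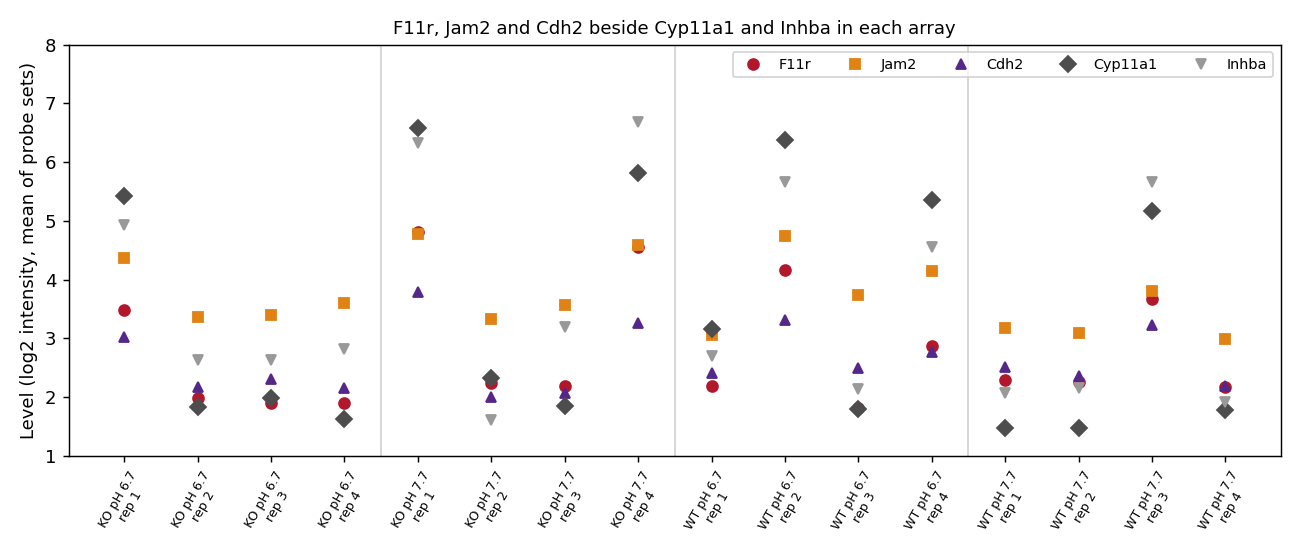
Level of F11r, Jam2 and Cdh2 with that of Cyp11a1 and Inhba (log2 intensity, mean of probe sets) in each of the 16 arrays, ordered by group; grey lines part the groups. The 6 arrays with Cyp11a1 above 5 are those on which F11r, Jam2 and Cdh2 are highest.

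For Cd44 and Cdh2 the choice of probe sets turned the sign of the difference in KO cells, which was -0.05 ± 0.09 and -0.37 ± 0.34 with the mean over probe sets and did not pass. Of the 23 probe sets of Cd44, the 11 brighter ones, at levels of 7.28 to 10.33, differed by -0.38 to 0.14 in KO cells, and the 12 dimmer ones, at 1.56 to 4.72, by -1.12 to 1.53. The brightest probe set of Cdh2 was at 8.61, 8.80, 8.76 and 8.75 in KO pH 6.7, against 3.89, 7.04, 4.15 and 7.25 in KO pH 7.7, while all 8 WT arrays lay between 7.40 and 9.14. That probe set differed by 3.15 ± 0.62 in KO cells (adjusted p = 0.0598 by limma over all probe sets), whereas 13 of the other 17 were lower, with a median of -0.77 over the 17.

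Other genes of the adhesion machinery were compared in lists chosen by function. Of 24 integrin activators and linkers to actin, 1 rose and 1 fell in KO cells and 1 fell in WT cells, which is 2 of 24 against 4.98% of all genes and 1 of 24 against 3.21%. Actn1, the α-actinin that ties integrins to actin filaments, was at 5.37, 5.04, 5.42 and 5.19 in KO pH 6.7, against 6.18, 6.06, 6.09 and 6.30 in KO pH 7.7, and at 5.11, 5.75, 4.99 and 5.44 in WT pH 6.7, against 5.91, 5.95, 6.11 and 5.77 in WT pH 7.7. The pH groups did not overlap, and Actn1 fell by 0.91 ± 0.14 (log2) in KO cells and 0.61 ± 0.14 in WT cells (adjusted p = 0.00171 and 0.0229 by limma). Apbb1ip (RIAM), which recruits talin to integrins, rose by 0.44 ± 0.10 in KO cells (adjusted p = 0.0193) and differed by 0.16 ± 0.10 in WT cells (adjusted p = 0.539). The median of this list was 0.00 in KO cells and 0.01 in WT cells, against -0.02 and 0.00 for all genes.

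Of 8 further tetraspanins, 1 rose in KO cells and 2 in WT cells, and 0 fell, where 3.21% of all genes rose in KO cells and 2.18% in WT cells. Tspan32 rose by 0.55 ± 0.11 in KO cells and 0.50 ± 0.11 in WT cells (adjusted p = 0.00943 and 0.0177 by limma). Cd82 rose by 0.51 ± 0.12 in WT cells (adjusted p = 0.0275) and differed by 0.29 ± 0.12 in KO cells (adjusted p = 0.184). Of 8 further integrin subunits, 1 fell in KO cells, where 1.77% of all genes fell. It was Itgae (αE), lower by 0.38 ± 0.10 (adjusted p = 0.031), and 0 passed in WT cells, where 0 had an unadjusted p under 0.05. All 8 averaged below the array median. Of the 4 catenins, which tie cadherins to actin, 0 passed and 0 had an unadjusted p under 0.05 in KO or in WT cells.

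Of 16 further leukocyte and junction molecules measured, 1 passed in WT cells, against 3.21% of all genes, and 0 in KO cells, against 4.98%, where 6 had an unadjusted p under 0.05. Icam4, a ligand of integrins, fell by 0.34 ± 0.08 in the averaged comparison (adjusted p = 0.0179 by limma). Its highest level was 2.40, and it lay above the array median on 0 of the 16 arrays. The gene that passed in WT cells was Selp, P-selectin, which binds Selplg and is also used here as a marker of large peritoneal macrophages. Its level was 6.03, 5.96, 5.31 and 5.55 in KO pH 6.7, against 4.97, 5.0, 4.17 and 5.40 in KO pH 7.7. It was 6.44, 6.44, 5.98 and 5.33 in WT pH 6.7, against 3.75, 3.02, 3.54 and 3.71 in WT pH 7.7. The 4 WT pH 7.7 arrays were the lowest of the 16, and the KO groups overlapped. Selp rose by 2.55 ± 0.26 in WT cells, or 5.84-fold (adjusted p = 6.71e-05 by limma), and differed by 0.83 ± 0.26 in KO cells (adjusted p = 0.0779). Its interaction of -1.72 ± 0.37 did not pass (adjusted p = 0.121), nor did the difference of 1.38 ± 0.26 between KO and WT cells at pH 7.7 (adjusted p = 0.239).

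P-selectin is also a platelet gene. Of the 5 platelet markers, 1 passed in WT cells, Ppbp, by 1.42 ± 0.35 (adjusted p = 0.0311 by limma), and 1 averaged above the array median. Their mean was 2.41 to 2.68 in WT pH 6.7, against 2.10 to 2.64 in WT pH 7.7, which overlap. Of the other 6 markers of large peritoneal macrophages, 0 passed in either genotype by limma, and 1, Prg4 in WT cells, had an unadjusted p under 0.05.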

How the data were processed

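RNA was hybridised to Affymetrix arrays whose probe sets cover single exons, in 16 samples of 4 groups. Per the submitters' processing notes, the authors made the deposited intensity values with RMA in R 2.15.2; they are on a linear scale from 0.88 to 5510 and were brought to log2 here. Each of the 16 columns was matched to a sample by its label, and no 2 arrays were identical. Of 241576 probe sets, 213361 had 1 gene symbol and were used, 5107 had several and 23108 had none listed. Symbols were updated through RefSeq's gene table (18496 current, 2354 updated, 43 kept), and the probe sets of a gene, a median of 8, were averaged. No filter on dim genes and no detection call was used.

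All 16 arrays were fitted with limma 3.58.1 in R 4.3.3 with a mean per group, moderated variances and Benjamini-Hochberg adjustment over 20848 genes in each of 7 comparisons, at a threshold of 0.05; tests were 2-sided. The steps were tested on simulated data. Members and lists were chosen with earlier results of these data known. All 31 members are reported, and of other lists up to 4 genes past the threshold. No batch is given in the labels, and none was tested. The replicate numbers were checked as pairs: over 24 pairs with the same number the correlation of deviations had a median of -0.01, with 2 pairs over 0.1, so they were not taken as pairs. Alternatives were other ways of summarising probe sets, filters, centring, repeated quantile normalization, an intensity trend, array weights, a replicate block, fits of only the groups compared, and leaving out arrays.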

Additional observations from a re-analysis of the deposited data

Results flagged for a closer look

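In 7 of 124 groups of 4 arrays, in 6 members, 1 array lay far from the other 3 by Dixon's test at 95%; chance gives about 1 in 20. F11r was at 3.49 in KO pH 6.7 replicate 1, against 1.90 to 1.99 in the other 3, and at 3.67 in WT pH 7.7 replicate 3, against 2.17 to 2.30; both are among the 6 arrays with high Cyp11a1 and Inhba. In WT pH 6.7 replicate 1, the array with the highest mean of mast cell genes, 4.31, Itga4 was at 6.31, against 6.57 to 6.61 in the other 3, and Itga5 at 4.88, against 5.31 to 5.39. Itgax was at 7.46 in KO pH 7.7 replicate 4, against 7.30 to 7.32. Cdh5 was at 2.43 in KO pH 7.7 replicate 1, against 2.01 to 2.02, and Pecam1 at 2.56 in WT pH 7.7 replicate 1, against 1.86 to 1.94.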

How the results depend on the processing

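The count of members called was 3 in WT cells, 1 in KO cells and 3 averaged over genotypes, and it moved with the processing; the cause was not tested except where fewer arrays or genes entered. With the brightest probe set of each gene it was 0 in WT cells, 2 in KO cells (Cdh2 and Alcam) and 1 averaged (Alcam). In KO cells it was 3 with the median over probe sets, 5 and 4 with filters at the 50th and 75th percentile, 2 with repeated quantile normalization, 4 with an intensity trend, 3 with array weights and 2 with only the groups compared. Averaged, it was 7 and 6 with the filters, 5 with each array centred, 6 with repeated quantile normalization, 6 with the trend and 7 with array weights; the added genes were among Itga5, Itga6, Itgam, Itgax and Icam1. Without the 6 arrays with high Cyp11a1 and Inhba, chosen after seeing the data, it was 1 in WT cells, 0 in KO cells and 2 averaged; fewer arrays entered these fits. Leaving out 1 array at a time gave 2 to 3 in WT cells, 0 to 3 in KO cells, with 0 in 12 of 16 fits and 3 without WT pH 7.7 replicate 2, and 3 to 6 averaged, with 6 without WT pH 7.7 replicate 2 and 5 without WT pH 7.7 replicate 1, WT pH 6.7 replicate 1 or WT pH 6.7 replicate 4. With the replicate block it was 2 in WT cells, where Itgb1 had an adjusted p of 0.0751, 1 in KO cells and 3 averaged. In the interaction and in all 3 comparisons of KO with WT cells it was 0 in every alternative run. The sign turned in 3 called values: Cdh2 in KO cells, 3.15 with the brightest probe set, Cd44 in KO cells, 1.10 with the median over probe sets, and Itgal averaged, 0.021 with the brightest probe set. Over all genes the count called was 669 in WT cells (175 to 913 over the alternatives, the lowest with the brightest probe set), 1038 in KO cells (135 to 1531, the lowest without the 6 arrays) and 1690 averaged (529 to 1959, the lowest with the brightest probe set), 9 in the interaction (1 to 83, the highest with the brightest probe set) and 5 for KO minus WT at pH 6.7 (0 to 67, the highest with the brightest probe set). Without a detection call the distance of dim members such as Vcam1 and Cdh1 from background is unknown.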
